A study of Mus musculus with 15 samples.

Results

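The genes described here encode the hydrolases, membrane proteins and proton pump of the lysosome, with the cathepsins left out. They are the probes that the platform annotation assigns to exactly 1 of 41 listed gene symbols. Of the 41 genes, 40 had a probe, 44 probes in all, out of 12909 genes and 17225 probes on the array. Atp6v0d2, a subunit of the proton pump known from osteoclasts, was not analysed here because no probe is named for it. The samples were 15 total RNAs of mouse alveolar macrophages, the phagocytes that live in the airspaces of the lung. Each was hybridised on a 2-colour array against a common reference labelled as a macrophage reference. The groups, of 5 arrays each, were beta6 null with TGFb1 (label b6-/-TGFb+/+Dox), beta6 null (b6-/-Dox) and wild type (b6+/+Dox). Beta6 null mice lack the integrin beta6 subunit, and the labels call the first group reconstituted with TGF-b1, without saying how. All 3 groups carry doxycycline in their labels, so it separates none of them. The labels give no age, strain or sex and no promoter behind the reconstitution, and wild type mice with TGFb1 were not analysed here. They do not say that each array holds a separate animal either, and the p-values then rest on the spread among these arrays, which may be technical.

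Lysosomes are acidic organelles in which macrophages break down what they engulf, and alveolar macrophages use them to degrade surfactant lipid. Most of their hydrolases are made with a mannose 6-phosphate tag, bound by the receptors M6PR and IGF2R in the Golgi and released in endosomes, while LAMP1 and LAMP2 coat the lysosomal membrane and the V-type ATPase pumps in the protons. Many of these genes are known targets of the transcription factor TFEB, which binds a palindromic E-box called the CLEAR element. The integrin alphavbeta6 of the lung epithelium activates latent TGFb, a factor that restrains macrophages.

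Values are log ratios against the reference, read as log2 and as sample over reference, with each array centred on its median. Neither the base nor the direction is stated. The direction is called likely: the labels put the reference in channel 1, and Mmp12, known to rise in macrophages of beta6 null mice, stood higher there by 4.31 (SE 0.42, adjusted p = 0.000183). In the opposite direction, all signs below would be reversed. A ratio does not show how abundant a transcript is, so no level is compared between genes and no marker can be called absent. The arrays gave values for 13093 to 16310 probes with TGFb1, 11615 to 16483 in beta6 null and 11714 to 16131 in wild type. Beta6 null replicate 1 and wild type replicate 2 stood apart, with the widest values (SD 2.0 and 2.01 over probes) and the fewest. Arrays correlated at r = 0.194 to 0.576. Of 25 alveolar macrophage markers, 18 were tested. They averaged -1.04 to -0.52 per array with TGFb1, -2.12 to -1.71 in beta6 null and -1.01 to -0.27 in wild type. In beta6 null against wild type 1 of the 18 rose and 6 fell at an adjusted p under 0.05 by limma, as 0.949% of all features did. These markers were chosen with earlier results of these data known, so they are no separate evidence on cell type. Fewer cells of a type and less RNA per cell cannot be told apart in such samples.

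Some members, though not most, hold a palindromic E-box near their start, the kind of site that TFEB binds. Many of these genes are known TFEB targets, so a share above that of all genes was likely beforehand. It is no result of these arrays. Of the 41 genes, 36 had a promoter in the RefSeq table of GRCm38.p6, taken from 250 bases before to 50 bases after each annotated start. The hexamer CACGTG, which reads the same on both strands, lay in the promoters of 10 of the 36 (27.8%), against 8.09% of 27025 genes. The longer palindrome TCACGTGA, which contains it, lay in 4 of 36 (11.1%), against 1.12% of all genes. One stretch of each of the 4 promoters follows, 48 bases long, 5′ to 3′ on the gene's strand, with TCACGTGA in capitals.
Cln3 chr7:126583331-126583378 minus strand: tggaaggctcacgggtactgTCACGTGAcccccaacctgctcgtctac
Mcoln1 chr8:3500453-3500500 plus strand: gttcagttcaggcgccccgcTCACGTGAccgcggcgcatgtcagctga
Atp6v1a chr16:44139364-44139411 minus strand: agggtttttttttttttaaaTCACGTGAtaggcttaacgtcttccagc
Gla chrX:134601173-134601220 minus strand: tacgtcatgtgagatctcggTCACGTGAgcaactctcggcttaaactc

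TCACGTGA began 122 bases before the start in Cln3, 46 in Mcoln1, 132 in Atp6v1a and 195 in the Gla stretch shown. These matches are letters in a window and say nothing of binding. The 8 tested members with CACGTG had a median difference of 0.12 in beta6 null against wild type and -0.33 with TGFb1 against beta6 null. The other 29 tested members, among them Atp6v1b2, Npc1, Atp6v1h and Asah1, which the table does not hold, had medians of -0.15 and -0.02. Both sets ranged to either side of 0 in both comparisons, from -0.27 to 1.22 and -0.58 to 0.48 in the members with the hexamer.

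The first comparison sets macrophages of beta6 null mice against those of wild type mice. Activation of TGFb was not measured. No lysosomal gene passed between beta6 null and wild type. By limma, 0 of 37 tested members had an adjusted p under 0.05, where 0.949% of 13273 features did (48 higher and 78 lower, or 40 and 36 after quantile normalization). The median difference of the members was -0.12 on the log2 scale, with 16 of 37 above 0, against a median of -0.05 over all features, of which 46.9% lay above 0. At an unadjusted p under 0.05 stood 8 members (21.6%), against 11.5% of all features: Lamp2, Lgmn, Cd63, Psap and Npc2 were higher in beta6 null and Manba, Scarb2 and Npc1 lower. The 5 higher ones are 13.5% of the members, against 4.28% of features, and the 3 lower ones are 8.11%, against 7.20%. Groups that did not overlap were found for 2 members, Npc1 and Scarb2, both lower in beta6 null (5.41%, with 5.12% of all features, 2.06% higher and 3.06% lower). No test was made of these shares. Without wild type replicate 2 Manba passed, and without both wide arrays Cd63 passed. The median of the members was 0.23 without beta6 null replicate 1 and 0.13 without both wide arrays.

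**Figure D1:**
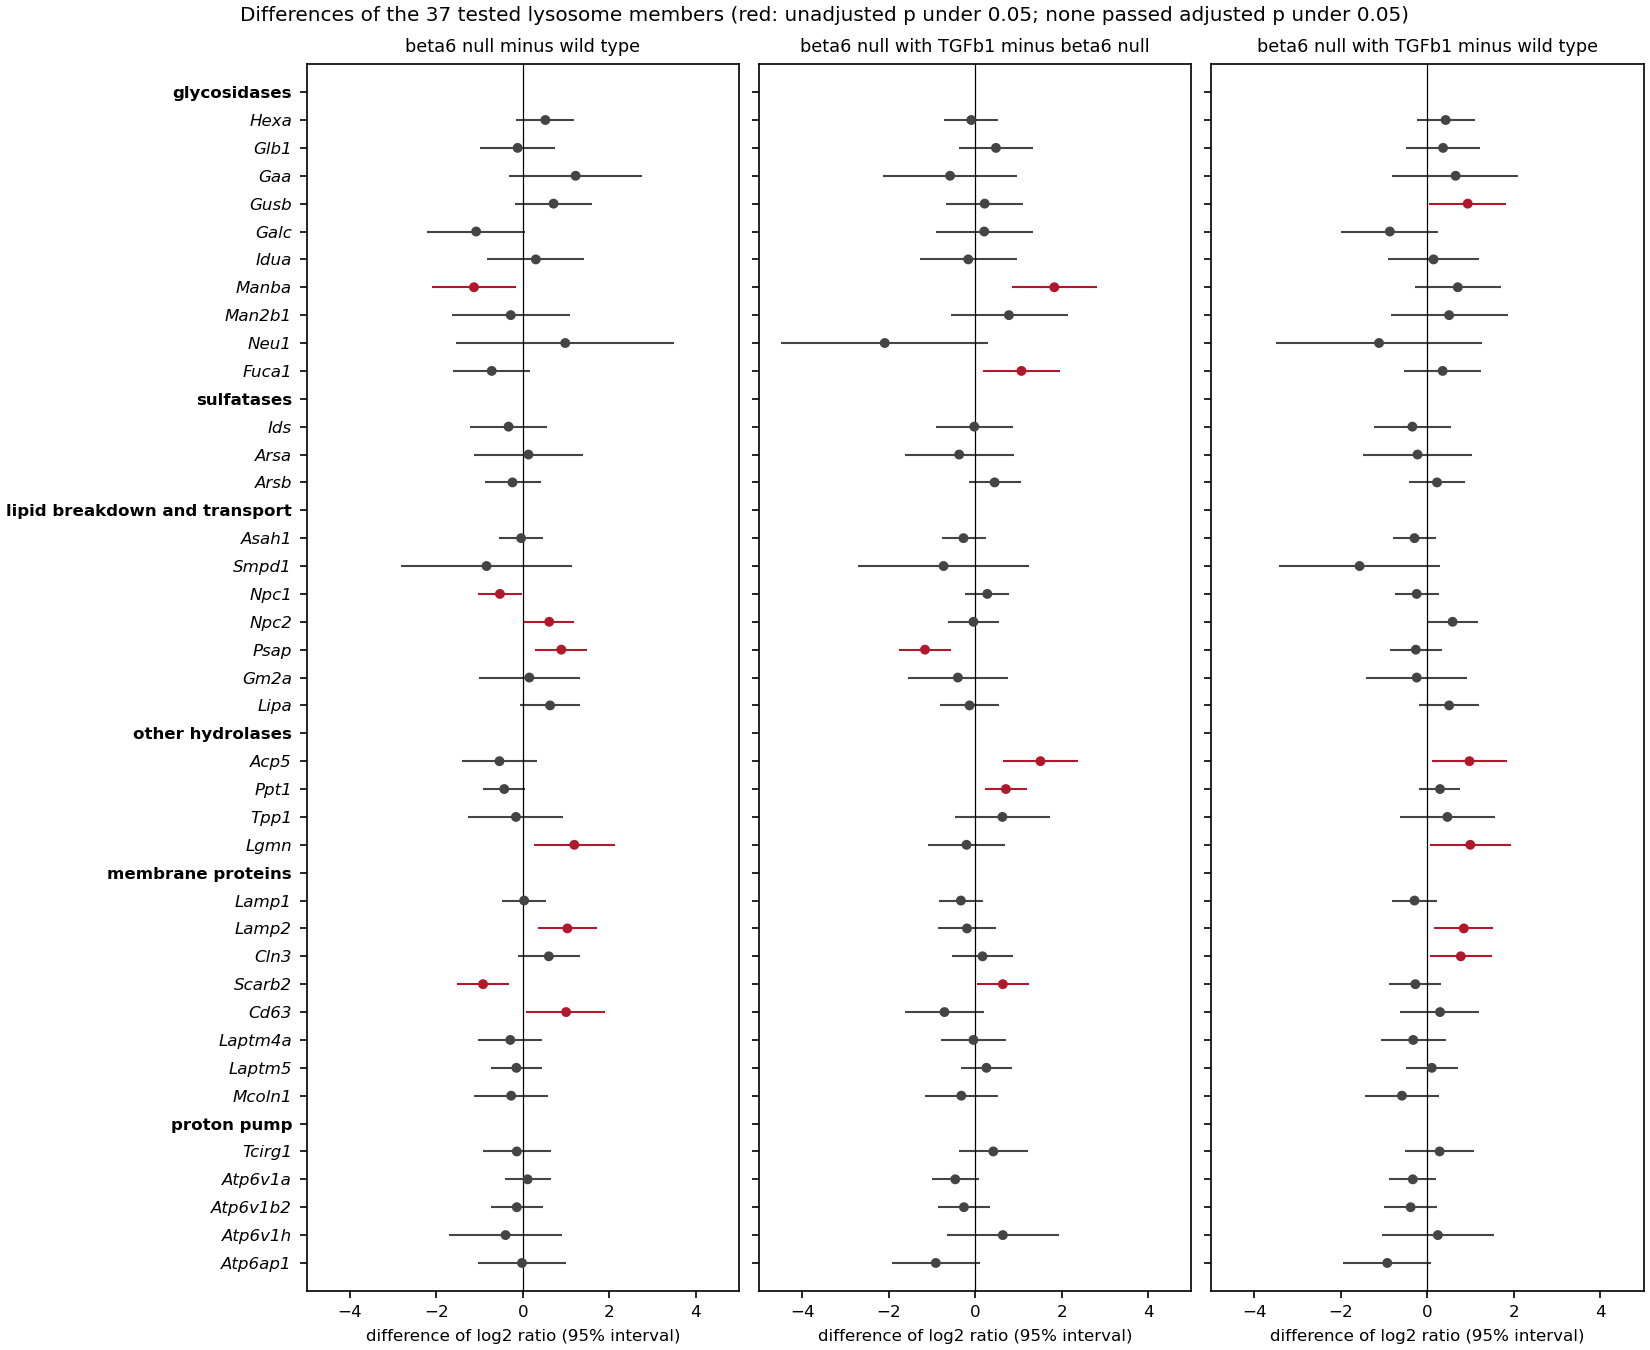
Differences of the log2 ratio (horizontal axis) with 95% intervals for the 37 tested members, listed by role, in the 3 comparisons. Red marks an unadjusted p under 0.05, which 8, 6 and 5 members reached, and no member passed an adjusted p under 0.05 in any of the 3 panels.

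The second comparison asks what TGFb1 changes on the beta6 null background. Again 0 of 37 members passed by limma, where 0.708% of features did (77 higher and 17 lower, or 8 and 7 after quantile normalization). The median difference was -0.04, with 16 of 37 members above 0, against 0.12 and 56.7% over all features. At an unadjusted p under 0.05 stood 6 members (16.2%, against 15% of all features). Manba, Acp5, Ppt1, Fuca1 and Scarb2 were higher with TGFb1 (5 members, 13.5%, against 11.1% of features) and Psap was lower (2.70%, against 3.85%). The groups did not overlap for 4 members, Acp5, Manba and Ppt1 above and Psap below (10.8%, with 8.26% of all features, 6.36% above and 1.91% below). Psap passed without beta6 null replicate 4, and Acp5, Manba and Psap passed without wild type replicate 2, an array that enters this comparison through the spread alone. Both comparisons use the same beta6 null arrays, so opposite signs in them are not separate evidence.

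With TGFb1 against wild type, 0 of 37 members and 0% of features passed by limma. The median member stood at 0.22, with 21 of 37 above 0, against 0.07 and 55.4% over all features. The 5 members at an unadjusted p under 0.05 (13.5%, against 6.28% of features, with 4.25% higher) were all higher with TGFb1: Lamp2, Acp5, Cln3, Lgmn and Gusb. Their wild type values included low ones, described with each gene. The groups did not overlap for Cln3 alone, which lay above wild type (2.70%, with 2.88% of features, 1.79% above and 1.09% below).

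A p that misses the threshold does not show that a gene was level, and the intervals say how much was measured. The 95% interval lay within 1 log2 unit of 0, which is a 2-fold difference either way, for 9 members in beta6 null against wild type (24.3%, with 18.7% of all features), 13 with TGFb1 against beta6 null (35.1%, with 17.3%) and 10 with TGFb1 against wild type (27.0%, with 22.5%). In all 3 comparisons it did so for 5 of the 37 members, Lamp1, Asah1, Laptm5, Atp6v1a and Atp6v1b2, and for 10.8% of all features. The residual SD between arrays of a group had a median of 0.63 over the members and 0.78 over all features. It was lowest for Ppt1 (0.22), Lamp1 (0.26) and Asah1 (0.26) and highest for Gaa (1.15), Smpd1 (1.5) and Neu1 (1.83). In beta6 null against wild type the interval ran over -1.54 to 3.49 for Neu1.

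Glycosidases cut sugar chains from glycoproteins, glycolipids and glycosaminoglycans, and 10 of 11 were tested. Their medians were 0.09 in beta6 null against wild type, 0.21 with TGFb1 against beta6 null and 0.39 with TGFb1 against wild type. Manba, beta-mannosidase, read -0.25, -0.43, -0.30, -0.37 and -0.74 with TGFb1, -2.63, -2.88, -2.47, -1.37 and -1.90 in beta6 null and -1.33, -2.97, -0.25, -0.73 and -0.33 in wild type macrophages. Every TGFb1 array lay above every beta6 null array, while wild type overlapped both, with replicate 2 at -2.97. The difference was 1.83 (SE 0.46, adjusted p = 0.0801) with TGFb1 against beta6 null, with an interval of 0.85 to 2.82, and -1.13 (SE 0.46, adjusted p = 0.347) in beta6 null against wild type. Without wild type replicate 2, Manba passed in both comparisons. It also passed with TGFb1 in fits without both wide arrays, on the 10 arrays of the 2 groups, on complete features and with array weights, at 1.38 to 1.83.

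Fuca1, alpha-L-fucosidase, read 0.31, -0.16, 0.06, -0.06 and -0.23 with TGFb1, -1.81, 0.30, -2.43, -0.82 and -0.64 in beta6 null and -0.16, -0.93, -0.23, -0.47 and -0.03 in wild type macrophages. The 5 beta6 null arrays ran from the lowest to nearly the highest of all 15, and the TGFb1 arrays stayed close together. Its difference with TGFb1 against beta6 null was 1.07 (SE 0.42, adjusted p = 0.241). Its 2 probes gave 0.91 (SE 0.31) and 1.22 (SE 0.74) there. In beta6 null against wild type they gave -0.18 (SE 0.31) and -1.26 (SE 0.74). With TGFb1 against wild type they gave 0.74 (SE 0.31) and -0.04 (SE 0.74). Gusb, beta-glucuronidase, read -0.07, -0.86, -0.50, -0.96 and -1.02 with TGFb1, -1.45, -0.40, -0.63, -1.37 and -0.64 in beta6 null and -2.16, -3.00, -0.97, -1.29 and -0.64 in wild type macrophages. Wild type replicates 1 and 2 were the lowest, and Gusb stood at 0.93 (SE 0.42, adjusted p = 0.787) with TGFb1 against wild type. Galc, which removes galactose from myelin lipids, read -1.48, 0.47, -0.21, 0.68 and -0.21 with TGFb1, -2.12, -0.11, 0.57, -0.21 and 0.08 in beta6 null and 0.36, 1.97, 0.47, 0.43 and 0.40 in wild type macrophages. Beta6 null replicate 1 and wild type replicate 2 were the extremes. Its difference in beta6 null against wild type was -1.08 (SE 0.53, adjusted p = 0.447), but its 2 probes went opposite ways, -2.34 (SE 0.80) and 0.64 (SE 0.34), so no direction is given for it.

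Like Galc, the other tested glycosidases did not reach an unadjusted p under 0.05 in any comparison. Hexa, the alpha subunit of beta-hexosaminidase, averaged -0.63 ± 0.37 with TGFb1, -0.53 ± 0.40 in beta6 null and -1.05 ± 0.40 in wild type (n = 4). Glb1, beta-galactosidase, averaged -0.32 ± 0.21 with TGFb1, -0.80 ± 0.90 in beta6 null and -0.68 ± 0.57 in wild type. Gaa, the acid alpha-glucosidase that degrades glycogen, averaged -0.59 ± 1.15 with TGFb1, -0.01 ± 0.95 in beta6 null (n = 4) and -1.23 ± 1.29 in wild type. Groups overlapped for each of these. Man2b1, Idua and Neu1, which act on mannose, iduronic acid and sialic acid, differed in beta6 null from wild type by -0.28, 0.30 and 0.98, and with TGFb1 from beta6 null by 0.78, -0.16 and -2.09. Neu1 had the widest intervals, -4.48 to 0.29 with TGFb1 against beta6 null. Gla, alpha-galactosidase A, gave a value on 5 arrays and was not tested: 0.70 on 1 array with TGFb1, 1.82, 0.32 and -1.64 on 3 arrays of beta6 null and 0.29 on 1 of wild type.

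Sulfatases remove sulfate groups from glycosaminoglycans and sulfatides. Of 4, the 3 tested had differences between -0.33 and 0.13 in beta6 null against wild type, between -0.37 and 0.45 with TGFb1 against beta6 null and between -0.35 and 0.22 with TGFb1 against wild type. Arsb, which acts on dermatan sulfate, averaged 0.01 ± 0.25 with TGFb1, -0.44 ± 0.45 in beta6 null and -0.20 ± 0.38 in wild type (n = 4). Ids, the iduronate sulfatase, averaged -1.11 ± 0.63 with TGFb1, -1.09 ± 0.84 in beta6 null and -0.76 ± 0.45 in wild type. Arsa, which acts on sulfatides, averaged -0.33 ± 0.65 with TGFb1, 0.03 ± 0.96 in beta6 null and -0.10 ± 1.26 in wild type. All groups overlapped for these 3 genes. Sgsh, which acts on heparan sulfate, gave a value on 4 arrays and was not tested (-0.52 and -0.99 with TGFb1, 0.98 in beta6 null and -0.86 in wild type).

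The 7 members of the lipid group work on sphingolipids, esters and cholesterol: Psap, the precursor of the saposins that present sphingolipids to their hydrolases, the activator Gm2a, the hydrolases Asah1, Smpd1 and Lipa, and the cholesterol carriers Npc1 and Npc2. Psap read 0.27, 0.64, 0.83, 0.92 and 0.68 with TGFb1, 1.98, 2.33, 2.0, 0.98 and 1.82 in beta6 null and 1.34, 1.06, 1.02, 0.78 and 0.48 in wild type macrophages. Of the 5 beta6 null arrays 4 lay above all others, and replicate 4, at 0.98, lay within the wild type range and just above the TGFb1 arrays. The difference was -1.16 (SE 0.28, adjusted p = 0.073) with TGFb1 against beta6 null, the smallest p of the whole gene group, with an interval of -1.76 to -0.56. Against wild type, Psap in beta6 null stood at 0.89 (SE 0.28, adjusted p = 0.203), and with TGFb1 at -0.27 (SE 0.28, adjusted p = 0.888). It passed against beta6 null without beta6 null replicate 4 (-1.37, adjusted p = 0.0431), without wild type replicate 2 (adjusted p = 0.0457) and on complete features (adjusted p = 0.0306). Its adjusted p ran up to 0.646 over the alternatives.

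Npc1 and Npc2 hand cholesterol out of the lysosome together, and their differences in beta6 null had opposite signs. Npc2 read -0.22, -0.17, -0.21, -0.25 and -0.40 with TGFb1, 0.41, -0.28, -0.45, -0.57 and -0.20 in beta6 null and -1.30, -1.03, -0.41, -1.16 and -0.25 in wild type macrophages. Wild type replicates 1, 2 and 4 were the lowest 3 of all arrays. Npc1 read -1.01, -0.27, -0.30, -0.56 and -0.25 with TGFb1, -0.85, -0.66, -0.72, -0.71 and -0.85 in beta6 null and -0.53, 0.24, -0.20, -0.52 and -0.15 in wild type macrophages. All beta6 null arrays lay below all wild type arrays, and the TGFb1 arrays overlapped both. The differences in beta6 null were 0.61 (SE 0.27, adjusted p = 0.399) for Npc2 and -0.53 (SE 0.24, adjusted p = 0.414) for Npc1, so neither passed, and the difference between the 2 genes was not tested. Lipa, lysosomal acid lipase, averaged 1.15 ± 0.16 with TGFb1, 1.28 ± 0.46 in beta6 null and 0.65 ± 0.64 in wild type, with a difference of 0.63 (SE 0.32, adjusted p = 0.473) in beta6 null. Asah1, acid ceramidase, was among the tightest, with an interval of -0.54 to 0.47 in beta6 null against wild type. Gm2a and Smpd1, acid sphingomyelinase, differed by 0.15 and -0.84 there, with intervals of -1.01 to 1.31 and -2.81 to 1.13.

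Among the phosphatases, the thioesterase and the peptidases, Acp5, the tartrate-resistant acid phosphatase of osteoclasts and tissue macrophages, read 0.82, 0.25, 0.60, 0.61 and 0.17 with TGFb1, -1.28, -1.0, -0.50, -1.13 and -1.19 in beta6 null and -0.37, -2.13, 0.35, -0.66 and 0.41 in wild type macrophages. Every TGFb1 array lay above every beta6 null array, and wild type overlapped both, from replicate 2 at -2.13 to replicate 5 at 0.41. The difference with TGFb1 was 1.51 (SE 0.41, adjusted p = 0.0981) against beta6 null, with an interval of 0.64 to 2.38, and 0.97 (SE 0.41, adjusted p = 0.787) against wild type. It passed against beta6 null without wild type replicate 2, without both wide arrays, on the 10 arrays of the 2 groups, on complete features and with array weights, at 1.45 to 1.53. Ppt1, which removes palmitate from proteins, read -0.51, -0.31, 0.11, -0.03 and 0.09 with TGFb1, -0.62, -0.76, -1.01, -0.76 and -1.06 in beta6 null and -0.64, -0.31, -0.23, -0.64 and -0.24 in wild type macrophages. The TGFb1 arrays all lay above the beta6 null arrays, by little, and wild type overlapped both. The difference was 0.71 (SE 0.22, adjusted p = 0.154), and its 2 probes gave 0.54 and 0.88.

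Lgmn, the asparaginyl endopeptidase legumain, read 0.73, -0.19, -0.06, -0.48 and -0.66 with TGFb1, -1.08, -0.14, 1.07, -0.10 and 0.59 in beta6 null and -1.79, -0.99, -1.15 and -0.55 in wild type macrophages. Wild type replicate 2 had no value, and the other 4 wild type arrays were low, though beta6 null replicate 1 and TGFb1 replicate 5 lay among them. Lgmn stood at 1.19 (SE 0.44, adjusted p = 0.292) in beta6 null and 0.99 (SE 0.44, adjusted p = 0.787) with TGFb1 against wild type. Tpp1, tripeptidyl peptidase, averaged -0.86 ± 0.17 with TGFb1, -1.49 ± 0.84 in beta6 null and -1.33 ± 1.19 in wild type. Acp2, another acid phosphatase, gave a value on 3 arrays, none of them wild type, and was not tested (2.03 with TGFb1, 0.60 and 0.42 in beta6 null).

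**Figure D2:**
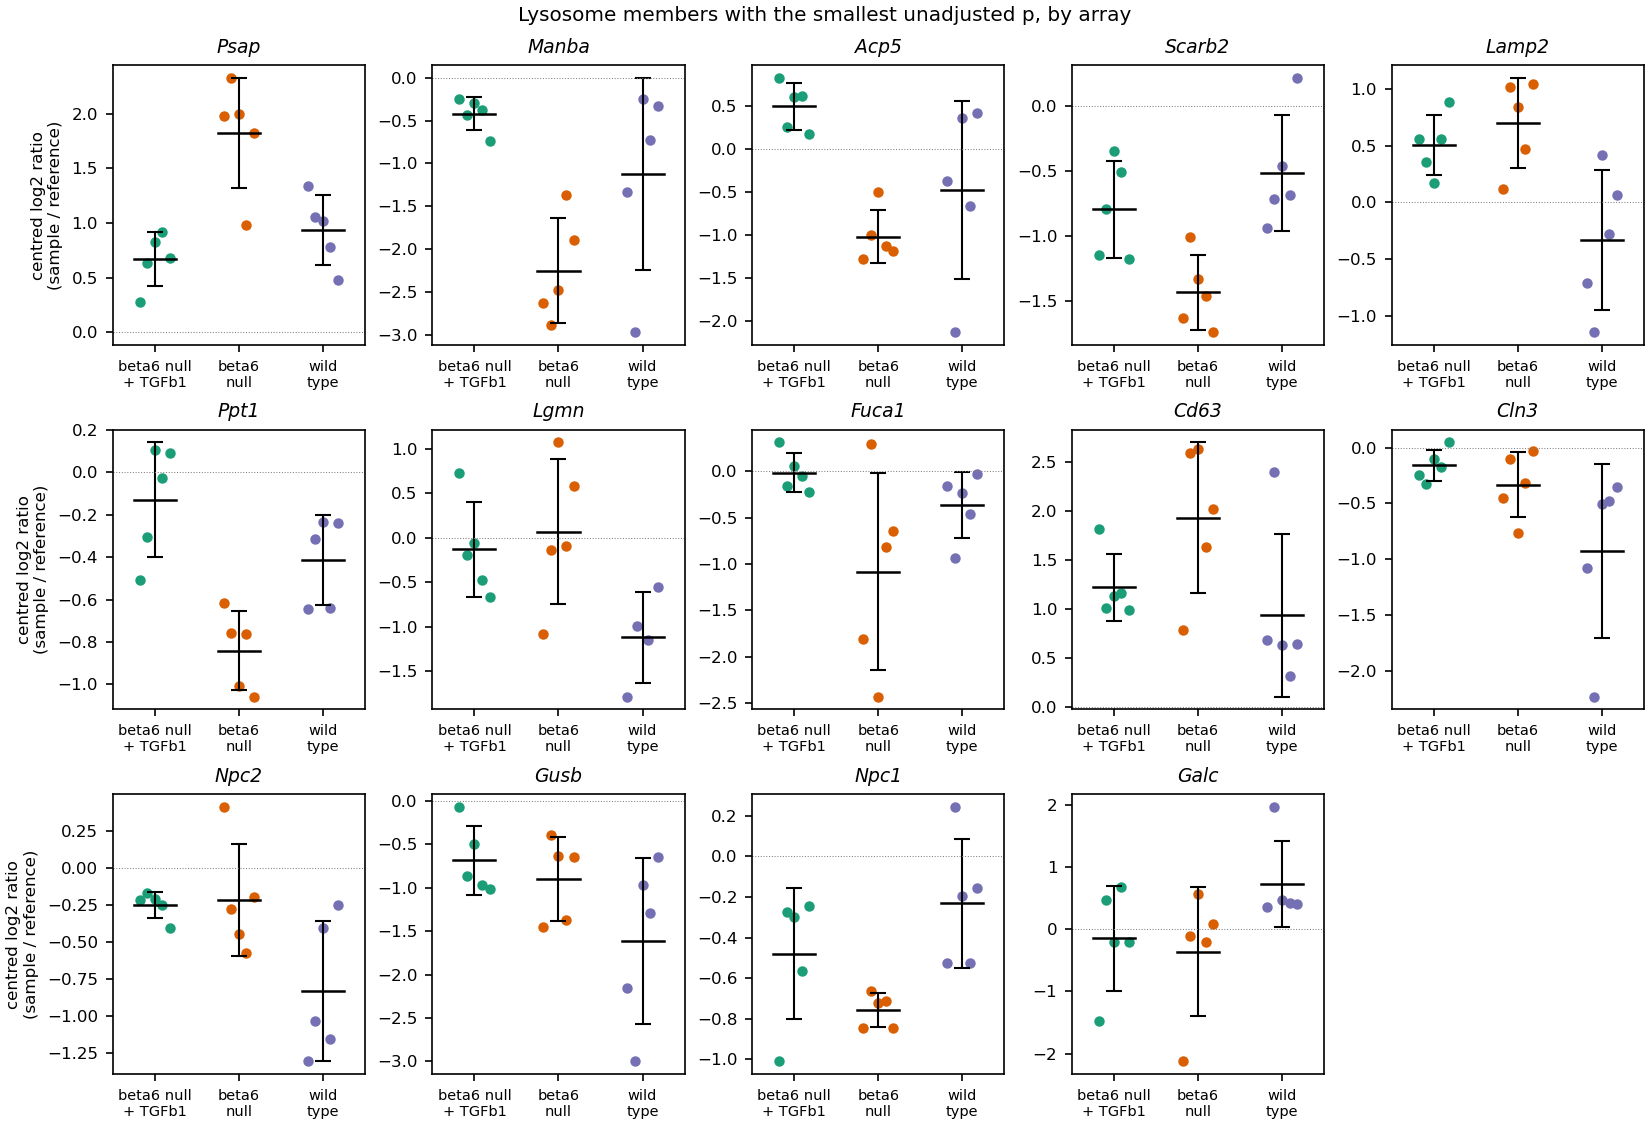
Centred log2 ratio of each array (points) for the 14 members with the smallest unadjusted p, with the mean and SD of each group (bars), for beta6 null with TGFb1, beta6 null and wild type. Psap is highest in beta6 null, Manba and Acp5 separate the TGFb1 arrays from the beta6 null arrays, and a single low wild type array widens that group in Manba, Acp5 and Cln3.

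The 8 membrane proteins had medians of -0.06 in beta6 null against wild type, -0.11 with TGFb1 against beta6 null and -0.09 with TGFb1 against wild type. Scarb2, the receptor that carries beta-glucocerebrosidase to the lysosome, read -1.15, -0.80, -0.34, -0.50 and -1.18 with TGFb1, -1.63, -1.01, -1.33, -1.47 and -1.74 in beta6 null and -0.94, -0.72, -0.46, -0.68 and 0.22 in wild type macrophages. All beta6 null arrays lay below all wild type arrays, the nearest being close, and overlapped the TGFb1 arrays. The difference was -0.92 (SE 0.28, adjusted p = 0.18) in beta6 null against wild type and 0.64 (SE 0.28, adjusted p = 0.303) with TGFb1 against beta6 null. Lamp2, a coat protein that also serves in autophagy, read 0.56, 0.35, 0.17, 0.56 and 0.89 with TGFb1, 0.12, 1.02, 0.85, 0.47 and 1.05 in beta6 null and -0.72, -1.15, 0.42, -0.28 and 0.07 in wild type macrophages. Of the wild type arrays, 4 lay below every TGFb1 array and below every beta6 null array, and replicate 3 did not. The difference was 1.03 (SE 0.32, adjusted p = 0.181) in beta6 null and 0.84 (SE 0.32, adjusted p = 0.787) with TGFb1 against wild type. Lamp1, its close relative, averaged 0.11 ± 0.36 with TGFb1, 0.44 ± 0.24 in beta6 null and 0.42 ± 0.16 in wild type, and its interval in beta6 null was -0.48 to 0.53.

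Cd63, a tetraspanin of late endosomes, read 1.81, 1.01, 1.13, 1.16 and 0.98 with TGFb1, 0.78, 2.60, 2.63, 1.62 and 2.01 in beta6 null and 0.68, 2.39, 0.63, 0.32 and 0.64 in wild type macrophages. All 5 beta6 null arrays lay above 4 of the wild type arrays, and wild type replicate 2, at 2.39, lay among the beta6 null arrays. Its difference in beta6 null was 1.0 (SE 0.43, adjusted p = 0.377). Beta6 null replicate 1 was the lowest of its group. Without that array and wild type replicate 2, the difference was 1.65 (adjusted p = 0.0102). These 2 arrays have the widest values and also hold the Cd63 values that go most against the difference. Cd63 passed in 0 of the 15 limma fits that left out 1 array, with adjusted p of 0.0893 to 0.556. Cln3, mutated in juvenile neuronal ceroid lipofuscinosis, read -0.24, -0.32, -0.10, -0.17 and 0.05 with TGFb1, -0.45, -0.10, -0.76, -0.32 and -0.03 in beta6 null and -1.08, -2.23, -0.51, -0.48 and -0.35 in wild type macrophages. All TGFb1 arrays lay above all wild type arrays, though the nearest almost met, and beta6 null overlapped both. Its difference there was 0.77 (SE 0.33, adjusted p = 0.787). The membrane proteins Laptm4a and Laptm5 and the calcium channel Mcoln1 differed from wild type by -0.29, -0.15 and -0.27 in beta6 null, and the 2 probes of Mcoln1 gave -0.96 and 0.30.

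The proton pump showed no difference past the threshold in its 5 tested members. Atp6v1a, the catalytic subunit, averaged 0.19 ± 0.20 with TGFb1, 0.65 ± 0.36 in beta6 null and 0.53 ± 0.31 in wild type. Atp6v1b2 averaged 0.25 ± 0.28 with TGFb1, 0.51 ± 0.41 in beta6 null and 0.64 ± 0.43 in wild type. Their intervals in beta6 null against wild type were -0.42 to 0.65 and -0.74 to 0.47, both within 1 log2 unit of 0. Tcirg1, the a3 subunit of osteoclasts and macrophages, differed by -0.14, and Atp6v1h by -0.40. The accessory protein Atp6ap1 averaged 0.20 ± 0.63 with TGFb1, 1.11 ± 0.57 in beta6 null and 1.14 ± 1.04 in wild type, with -0.91 (SE 0.48, adjusted p = 0.391) with TGFb1 against beta6 null.

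The lysosomal genes that did pass were not among these members. They come from 4 further lists with 81 genes on the array: other hydrolases, other membrane proteins, other pump subunits, and sorting and regulation. Like the members, these lists were chosen with earlier results of these data known. Of all features, 0.949% passed in beta6 null against wild type and 0.708% with TGFb1 against beta6 null. In sorting and regulation, with 20 genes tested, both mannose 6-phosphate receptors differed past the threshold between beta6 null and wild type, in opposite directions. Igf2r, the large receptor, which also takes up IGF2, read 0.16, -0.03, 0.83, 0.44 and 1.04 with TGFb1, 3.29, 4.34, 2.78, 1.73 and 2.5 in beta6 null and 0.20, 0.16 and 0.66 in wild type macrophages. All 5 beta6 null arrays lay above every other array, and wild type replicates 1 and 2 had no value. Igf2r rose in beta6 null by 2.58 (SE 0.50, adjusted p = 0.0292), and fell with TGFb1 to 0.49 ± 0.45, against 2.93 ± 0.97 in beta6 null (SD, n = 5 each), a difference of -2.44 (SE 0.43, adjusted p = 0.0288). M6pr, the small receptor, read 0.53, 0.33, 0.54, 0.40 and 0.61 with TGFb1, -1.18, -0.37, -0.10, -0.23 and -0.41 in beta6 null and 1.04, 0.73, 0.89, 0.58 and 0.80 in wild type macrophages. All 5 beta6 null arrays lay below every other array. M6pr was lower in beta6 null, at -1.27 (SE 0.24, adjusted p = 0.0202), and stood higher with TGFb1 than in beta6 null by 0.94 (SE 0.24, adjusted p = 0.0847), which did not pass. Against wild type the TGFb1 group was at 0.15 (SE 0.50, adjusted p = 0.971) for Igf2r and -0.33 (SE 0.24, adjusted p = 0.834) for M6pr.

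Cd164, an endolysosomal sialomucin, was the 1 of 22 other membrane proteins that passed. It read -0.99, -1.58, -0.97, -1.22 and -1.28 with TGFb1, -2.90, -2.71, -2.25, -2.54 and -2.29 in beta6 null and -1.18, -1.84, -1.02, -1.69 and -0.79 in wild type macrophages. The beta6 null arrays were the lowest 5 of the 15. Cd164 fell in beta6 null, at -1.23 (SE 0.26, adjusted p = 0.0408) against wild type, and rose with TGFb1 against beta6 null by 1.33 (SE 0.26, adjusted p = 0.0336). Atp6v0e, a small subunit of the membrane sector of the pump, was the 1 of 12 other pump subunits that passed, and read -0.97, -0.84, -0.70, -0.63 and -1.46 with TGFb1, -2.62, -2.35, -1.72, -2.35 and -2.41 in beta6 null and -1.55, -1.78, -1.20, -1.94 and -0.74 in wild type macrophages. The TGFb1 arrays all lay above the beta6 null arrays, and wild type overlapped both. Atp6v0e rose with TGFb1 by 1.37 (SE 0.29, adjusted p = 0.0426) against beta6 null, and stood at -0.85 (SE 0.29, adjusted p = 0.243) in beta6 null against wild type. None of the 22 other hydrolases passed. Of these Man2b2 had the smallest p, at 1.32 (SE 0.32, adjusted p = 0.0856) in beta6 null and -1.01 (SE 0.28, adjusted p = 0.109) with TGFb1 against beta6 null. Man2b2 had a value on 3 wild type arrays, with none on replicates 1 and 2. Mitf, a factor related to TFEB, was at -0.73 (SE 0.88, adjusted p = 0.782) in beta6 null against wild type. Tfeb had a value on 2 beta6 null arrays and was not tested, and Tfe3 was not analysed here.

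These calls sat close to the threshold. In beta6 null against wild type, M6pr lost its call without wild type replicate 1, 3 or 5. Igf2r lost it without beta6 null replicate 1 or 3, TGFb1 replicate 4 or wild type replicate 3, 4 or 5. Cd164 kept it only without wild type replicate 2. With TGFb1 against beta6 null, Igf2r lost its call without beta6 null replicate 1 or TGFb1 replicate 1, 2, 3 or 4, Cd164 without beta6 null replicate 1, 2 or 4 or any TGFb1 array, and Atp6v0e without beta6 null replicate 1, 2, 4 or 5, TGFb1 replicate 1, 2, 3 or 4 or wild type replicate 1, 3 or 4. The highest adjusted p among these fits was 0.134, and every sign held.

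**Figure D3:**
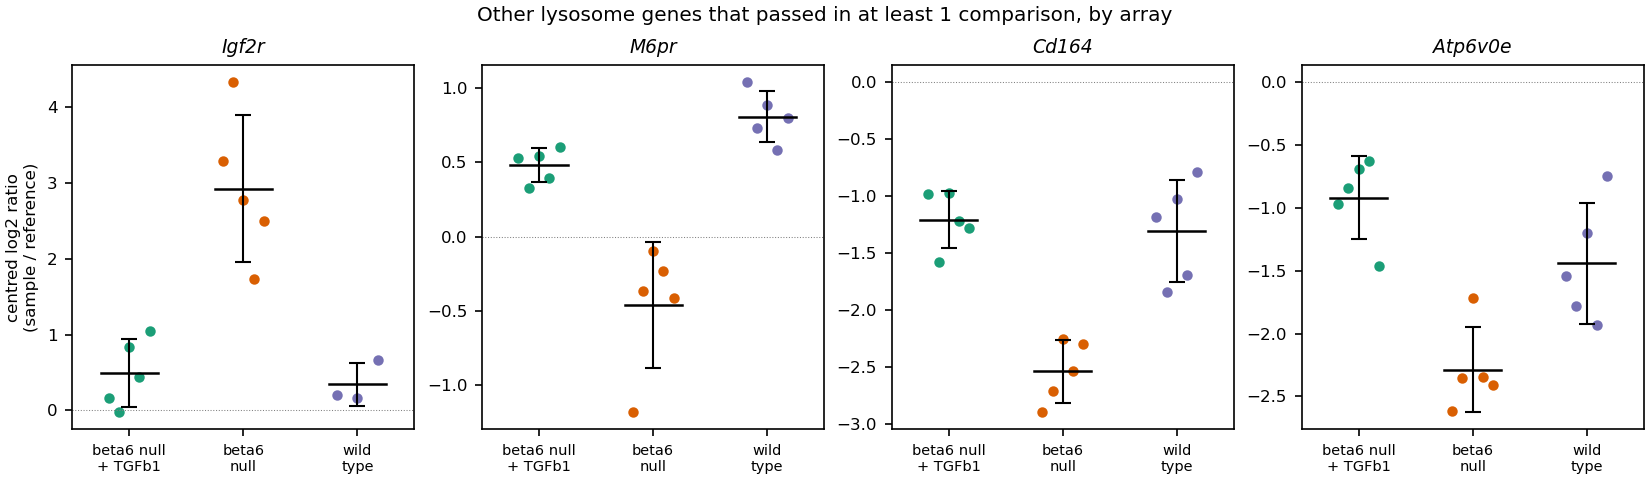
Centred log2 ratio of each array (points) with group mean and SD (bars) for Igf2r, M6pr, Cd164 and Atp6v0e in beta6 null with TGFb1, beta6 null and wild type. The beta6 null arrays lie above all others in Igf2r and below all others in M6pr and Cd164.

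Some other measures moved with the groups and others moved little. Their part in the lysosomal values was not tested, beyond a fit with Xist as a covariate. Xist, which coats the inactive X of female cells, averaged -3.07 ± 0.49 with TGFb1, -0.40 ± 1.48 in beta6 null and -3.10 ± 0.71 in wild type. In beta6 null against wild type it passed by limma, at 2.69 (SE 0.59, adjusted p = 0.0444). The beta6 null arrays ran from -2.46 to 0.88. The labels give no sex, so differences of sex and of genotype cannot be fully told apart in the values above. Of the 4 members on the X chromosome, 3 were tested. In beta6 null against wild type Lamp2 stood at 1.03 (SE 0.32), Ids at -0.33 (SE 0.42) and Atp6ap1 at -0.02 (SE 0.48). With the Xist level as a covariate they stood at 0.54 (SE 0.5), -0.33 (SE 0.69) and 0.40 (SE 0.78), with wider SE. Under that covariate 0 features passed by limma in any comparison, with 922 at an unadjusted p under 0.05 in beta6 null against wild type, among them 1 member. Of the genes called in beta6 null against wild type, M6pr was then at -1.40 (adjusted p = 0.426), Cd164 at -1.31 (adjusted p = 0.575) and Igf2r at 1.90 (adjusted p = 0.656), with the same signs as without the covariate. With TGFb1 against beta6 null, Atp6v0e was at 1.37, Cd164 at 1.41 and Igf2r at -1.71. Among the members, Cd63 was at 0.15 and Lgmn at 0.26 in beta6 null against wild type. Dendritic cell and monocyte markers, 13 of 15 tested, averaged -0.08 to 0.73 per array with TGFb1, 0.67 to 1.63 in beta6 null and -0.34 to 0.28 in wild type. Of these 13, 2 rose and 1 fell in beta6 null against wild type at an adjusted p under 0.05 by limma. Of all features 0.949% passed there, the share to set beside this count and those of the lists below. Neutrophil markers (8 of 13 tested) averaged -1.15 to 0.17 with TGFb1, -0.15 to 0.87 in beta6 null and -0.62 to 0.17 in wild type. Of the 8, S100a8 rose in beta6 null. T, NK and B cell markers (10 of 17 tested) averaged -0.56 to 0.45 with TGFb1, -0.13 to 1.43 in beta6 null and -0.75 to 0.13 in wild type. Epithelial markers (14 of 20 tested) averaged -0.93 to -0.50 with TGFb1, -1.0 to -0.58 in beta6 null and -1.46 to -0.56 in wild type. Of the 14, 1 rose and 2 fell in beta6 null. Fibroblast and endothelial markers (7 of 14 tested) averaged -0.59 to 0.22 with TGFb1, -0.31 to 0.36 in beta6 null and -0.45 to 0.59 in wild type. General macrophage markers (11 of 15 tested) averaged -0.66 to 0.70 with TGFb1, -0.44 to 0.20 in beta6 null and -0.61 to 0.19 in wild type. No T, NK, B, fibroblast, endothelial or general macrophage marker passed in beta6 null against wild type.

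Over the 30 members with values on all arrays, the median per array was -0.19 to 0.00 with TGFb1, -0.75 to 0.03 in beta6 null and -0.39 to 0.03 in wild type. The groups overlapped, and beta6 null replicate 1 was the lowest array at -0.75.

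**Figure D4:**
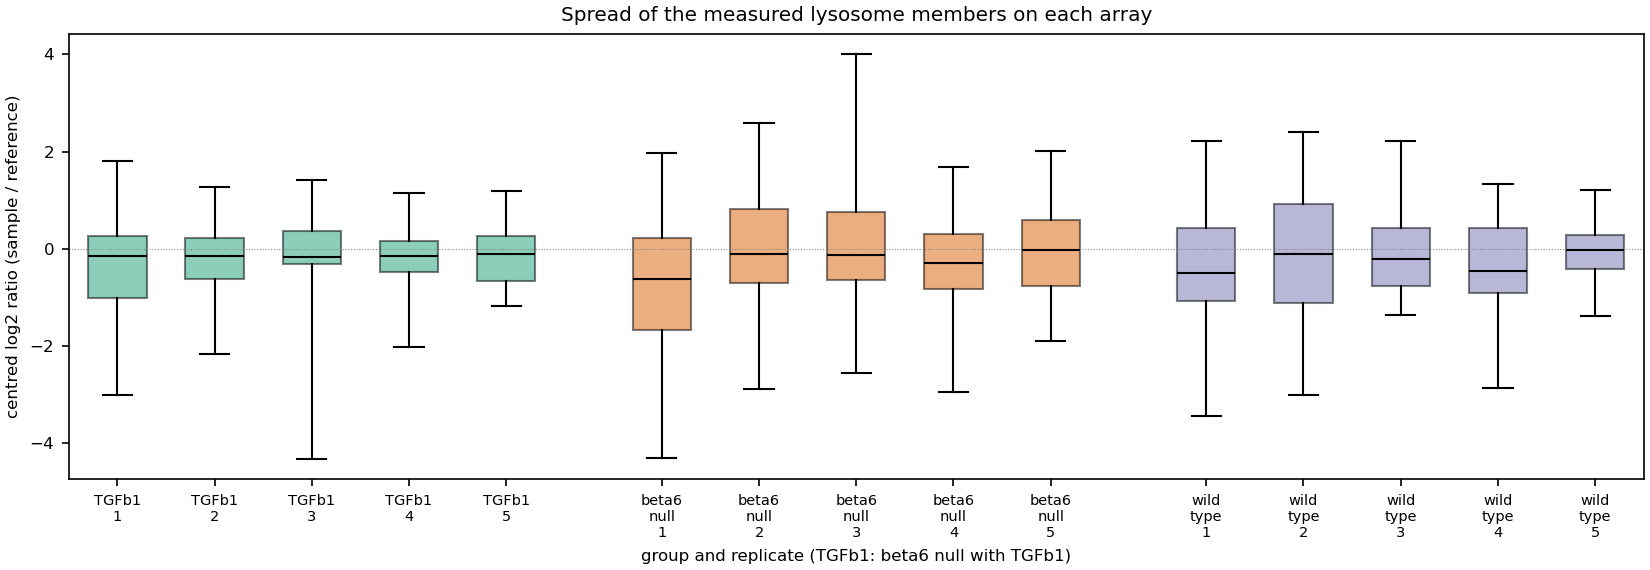
Spread of the centred log2 ratios of the tested members on each array, for beta6 null with TGFb1 (labelled TGFb1), beta6 null and wild type. Boxes span the quartiles, lines mark the median, and whiskers reach the lowest and the highest member. Medians lie between -0.63, on beta6 null replicate 1, and -0.03, and the groups overlap.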

How the data were processed

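Total RNA of 15 mouse alveolar macrophage samples was hybridised on 2-colour arrays against a common macrophage reference, 5 arrays in each of 3 groups taken from the labels. The authors deposited log ratios, read here as log2, 1 per probe and array, already close to a median of 0 (-0.048 to 0.028); their scanner intensities, normalization and the base of the logarithm are not given in the sources used here, so dye bias, background and saturation were not checked. The number of arrays limits the precision. Replicates were numbered in accession order, and 0 pairs of arrays correlated above 0.99.

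From these values, 30 control spots were left out and each array was centred on its median. Of the other 17195 probes, 13972 had 1 gene symbol in the platform annotation, 13 several and 3210 none. Probes of 1 gene were averaged, and 13273 features remained that each group had measured on 3 arrays or more. Group means over all 15 arrays were fitted with limma 3.58.1 in R 4.3.3 (lmFit, eBayes), with p-values adjusted by Benjamini-Hochberg over all features and a threshold of 0.05. All SE, intervals and adjusted p in the text come from that fit unless an alternative is named. Means are given with the SD over 5 arrays unless another n is stated. The scripts were tested on simulated data. The 14 members given array by array had the smallest unadjusted p over the 3 comparisons. The members and lists were chosen with earlier results of these data known. Promoter sequence, gene symbols and chromosomes came from RefSeq tables of GRCm38.p6. Alternatives left out arrays in turn, the 2 widest arrays or the third group, or changed scaling, filter, probes, spread, weights or covariates.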

Additional observations from a re-analysis of the deposited data

Results flagged for a closer look

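An array far from the other 4 of its group, by Dixon's test at its 95% critical value, was found 5 times among 53 groups of values tested, and chance flags about 1 in 20 groups. Cd63 was high on TGFb1 replicate 1 (1.81) and on wild type replicate 2 (2.39). Galc was low on beta6 null replicate 1 (-2.12) and high on wild type replicate 2 (1.97). M6pr was low on beta6 null replicate 1 (-1.18). Of the 5 values, 4 lie on the arrays with the widest spread of values.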

How the results depend on the processing

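The main limits are the assumed base and direction, 5 arrays a group, and a spread that differs between arrays; the cause of the changes below was not tested. No paired analysis was possible because the labels give no replicate numbers. Over 28 alternatives, 0 members passed with TGFb1 against wild type in all of them, and the median member difference there was 0.03 to 0.31. In beta6 null against wild type, the 126 features called became 66 without the 2 arrays numbered apart from the rest in their titles, 45 on the 10 arrays of the 2 groups, 76 with quantile normalization, 61 with the spread of arrays made equal, 422 with array weights, 64 with the suffix of the array title as a block and 0 with Xist as a covariate. The 0 members called became 1 without the 2 widest arrays and 4 with array weights (Cd63, Lgmn, Manba and Scarb2). The median difference of -0.12 became 0.13 without the 2 widest arrays and -0.44 with Xist. With TGFb1 against beta6 null, the 94 features became 27, 15, 11, 621, 43 and 0 without the arrays numbered apart, with quantile normalization, equal spread, array weights, the suffix block and Xist, and 287 without the 2 widest arrays and 220 on features complete on 15 arrays. The 0 members became 2 without the 2 widest arrays, 2 on 10 arrays, 3 on complete features and 3 with array weights (Acp5, Manba and Ppt1), and the median of -0.04 became 0.37 with Xist. With TGFb1 against wild type, the 0 features became 1 on 10 arrays and 1 with array weights. Leaving out 1 array at a time gave 63 to 154 features, 0 to 1 members and medians of -0.18 to 0.23 in beta6 null against wild type. It gave 23 to 311 features, 0 to 3 members and medians of -0.12 to 0.05 with TGFb1 against beta6 null, and 0 to 1 features with TGFb1 against wild type. Counts of features moved by over 1.5 times in beta6 null against wild type without beta6 null replicate 2 (68), TGFb1 replicate 4 (82) and wild type replicates 1 (81), 3 (64), 4 (76) and 5 (63). They did so with TGFb1 against beta6 null without beta6 null replicates 2 (27) and 4 (46), TGFb1 replicates 1 (40), 2 (41), 3 (23), 4 (24) and 5 (62) and wild type replicate 2 (311). With TGFb1 against wild type, 1 feature passed without beta6 null replicate 1 and 1 without TGFb1 replicate 5. Among the 20 differences of single genes followed through these alternatives, that of Galc in beta6 null against wild type changed sign, to 0.64 by its second probe, and the others kept theirs. Over all alternatives the adjusted p reached 0.426 for M6pr, 0.656 for Igf2r and 0.575 for Cd164 in beta6 null against wild type, and 0.563 for Igf2r, 0.501 for Cd164 and 0.537 for Atp6v0e with TGFb1 against beta6 null.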
